A study of Arabidopsis thaliana with 8 samples.

Results

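Calcium-dependent protein kinases (CPKs) are plant enzymes that carry a protein kinase and a calcium-binding, calmodulin-like part in the same chain, so that a rise in cytosolic calcium switches on phosphorylation directly. In Arabidopsis thaliana several of them act in the response to abscisic acid (ABA), the hormone of drought and seed dormancy. They phosphorylate anion channels of guard cells and transcription factors that bind ABA-responsive promoters, and phosphatases such as ABI1 counteract some of these steps. The 9 CPK genes described here were chosen by locus, as kinases with known roles in ABA, guard cell or nitrate signalling. They are CPK3, CPK4, CPK6, CPK10, CPK11, CPK21, CPK23, CPK30 and CPK32. All 9 were rows of the count table of 33674 features, all 9 passed the filter on low counts that left 21008 features for testing, and the other 25 CPK genes served for comparison.

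Transcripts were counted by RNA sequencing of seedlings, 13 days old, of the Columbia-0 (Col-0) ecotype. The 4 groups were wild type at 0 µM ABA, wild type at 100 µM ABA, skip-1 at 0 µM ABA and skip-1 at 100 µM ABA, each with 2 libraries and each treated for 3 h. The mutant skip-1 affects SKIP, a protein of the spliceosome that also acts in transcription, with the lesion itself not given in the sources used here. Nothing in the labels says that the 2 libraries of a group came from separately grown seedlings, so the p-values reflect only the variation among these libraries, which may be technical. In RNA from seedlings, fewer cells of a type and less RNA per cell cannot be told apart.

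Library totals ran from 20870110 to 23640113 counted reads, and each of the 9 genes had between 315 and 3661 counts in every library. SKIP itself (AT1G77180) was at 150 and 163 CPM (counts scaled to a common library size, by trimmed means) in wild type without ABA, 136 and 161 with ABA, then 104 and 133 in skip-1 without ABA, against 108 and 125 with it. Its difference between genotypes did not pass the threshold of an edgeR adjusted p of 0.05, either without ABA (log2 fold change −0.40 ± 0.15 SE, adjusted p = 0.0822) or with it (−0.35 ± 0.15, adjusted p = 0.1). Marker genes of leaf tissue were abundant, with the 4 green tissue markers summing to 16500 to 38100 CPM. The 4 pollen CPK genes CPK14, CPK17, CPK24 and CPK34 together stayed at or under 0.273 CPM in every library, and CPK24 and CPK34 had no count in 6 and 7 of the 8 libraries.

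Levels of different genes were compared per length, with the deposited FPKM (the count scaled by gene length and by the library total). CPK3 was the highest of the 9 genes and of all 34 CPK genes in each of the 4 groups, at 80 and 84.2 FPKM in wild type without ABA. CPK21 came second among the 9, at 29.7 and 30.2 FPKM in the same libraries. CPK23 was the lowest of the 9 in every group, at 6.2 and 6.76 FPKM in wild type without ABA. Its place depends on the lengths behind the FPKM, 2760 bases for CPK23 against 2047 for CPK30, the gene next above it. Between these ends, CPK4 (16 and 17), CPK11 (15 and 15.6), CPK32 (14.6 and 14.9) and CPK6 (12.2 and 13.7) followed each other in wild type without ABA with no overlap between neighbours, whereas CPK10 (9.09 and 10.8) and CPK30 (8.99 and 9.89) overlapped. With ABA the middle of the order was different. In wild type CPK32 reached 21.5 and 24.4 FPKM and overlapped CPK21 at 23.9 and 24, and CPK10 at 17.1 and 20.7 came next after CPK32. In skip-1 with ABA, CPK10, CPK32, CPK6, CPK11 and CPK4 followed in that order between 17.4 and 23.4 FPKM, and each of the first 4 overlapped the next, while CPK4 lay apart from CPK30 below it. The 9 genes made up 46.3% to 50.5% of the summed FPKM of the 34 CPK genes across the 8 libraries, and CPK3 alone 29.1% to 41.6% of the sum of the 9. FPKM is scaled by the library total only, so changes of a gene between groups are given below in CPM.

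**Figure D1:**
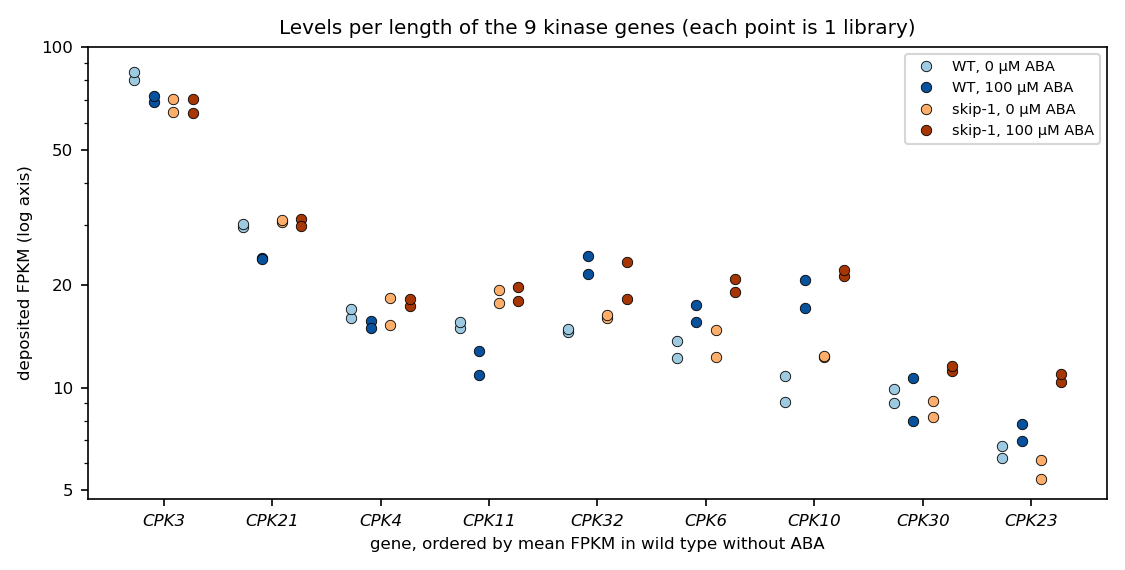
Deposited FPKM on a log axis for the 9 CPK genes in each of the 8 libraries, ordered by their mean in wild type without ABA. CPK3 lies above and CPK23 below the other 8 genes in all 4 groups, while CPK10 and CPK32 are higher in the libraries with ABA.

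The first comparison asked which of these transcripts changed after ABA in wild type. CPK10, CPK32, CPK6 and CPK23 rose, by 1.32-fold to 2.19-fold, and none of the 9 fell. The 4 of 9 called (44.4%) stand beside 43.1% of all 21008 genes called in this comparison, 23.7% higher and 19.5% lower, so the share called was near that of the whole table. Their median log2 fold change was 0.19, beside −0.01 over all genes tested. Counted by whether the libraries of the groups lay apart, 7 of the 9 were apart, beside 73.6% of all genes. In skip-1 the same 4 genes rose, by 1.32-fold to 1.9-fold, and again none fell. There 44.4% of the 9 were called beside 28.5% of all genes (16.3% higher, 12.1% lower), the median log2 fold change was 0.40 beside −0.02, and 5 of the 9 lay apart beside 67%. The ABA comparisons in wild type and skip-1 set different libraries against each other, and all 4 genes called in wild type were among the 4 called in skip-1. Both came from the same fit to all 8 libraries with a shared estimate of spread, so the sets of calls are not independent. The overlap of calls over all genes is not given here.

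The scaling matters for the small changes. ABA libraries of wild type had the lowest scaling factors (0.9082 and 0.9176, against 1 to 1.063 in the other 6 libraries), and scaling by library total alone moved the median log2 fold change of all genes in that comparison to −0.22. With that scaling 3743 genes were called higher and 6658 lower, against 4974 and 4087 with scaling by trimmed means. Among the 9 genes 3 were then called higher and 2 lower in place of 4 and 0, and limma on log2(FPKM + 1), which also rests on the library total, called 2 higher and 2 lower.

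**Figure D2:**
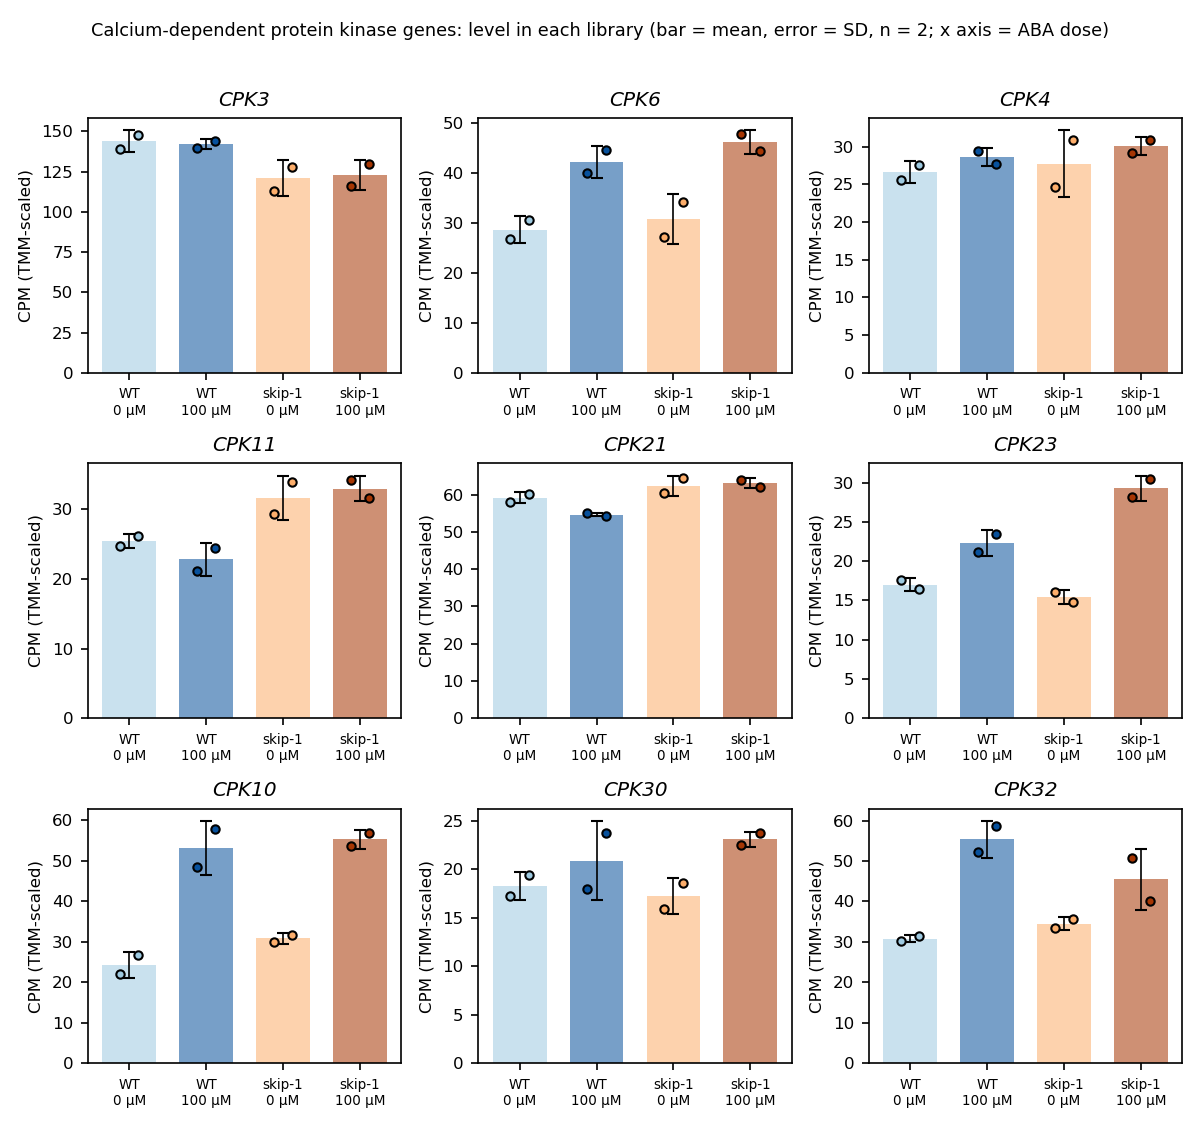
CPM of each of the 9 CPK genes in wild type (WT) and skip-1 at 0 and 100 µM ABA. Points are the 2 libraries of a group, bars the mean and error bars the SD. CPK10, CPK6, CPK23 and CPK32 are higher in both libraries with ABA than in both without it, in either genotype.

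CPK3 (AT4G23650) and CPK6 (AT2G17290) are known in guard cells, where loss of both impairs ABA activation of anion channels. CPK6 phosphorylates the anion channel SLAC1, and CPK3 phosphorylates the heat shock factor HSFB2A. CPK6 (chromosome 2, 7516330 to 7519662, plus strand of TAIR10.1, up to 8 exons) was at 26.8 and 30.6 CPM in wild type without ABA, against 40.1 and 44.6 with it. In skip-1 it was at 27.2 and 34.3 CPM without ABA, against 47.9 and 44.5 with it. The libraries with and without ABA did not overlap in either genotype, while those of wild type and skip-1 overlapped at each dose. CPK6 rose by a log2 fold change of 0.56 ± 0.13 in wild type (adjusted p = 0.00946) and 0.59 ± 0.13 in skip-1 (adjusted p = 0.012). The call in wild type was lost without replicate 2 of wild type with ABA (adjusted p = 0.0692) or replicate 1 without ABA (0.0837) and with limma on log2(FPKM + 1) (0.33, adjusted p = 0.0621), and in skip-1 without replicate 1 with ABA (0.0656) or without ABA (0.0647).

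CPK3 (chromosome 4, 12324758 to 12327651, minus strand, up to 9 exons) was at 139 and 148 CPM in wild type without ABA, against 140 and 144 with it. The skip-1 libraries were at 113 and 128 CPM without ABA, against 116 and 130 with it, so all 4 mutant libraries lay below all 4 wild type libraries. ABA gave a log2 fold change of −0.02 in wild type (95% interval −0.25 to 0.22) and 0.03 in skip-1 (−0.21 to 0.26). Set against wild type, skip-1 gave −0.25 ± 0.10 without ABA (adjusted p = 0.121) and −0.21 ± 0.10 with it (adjusted p = 0.158), and neither passed the threshold.

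CPK4 (AT4G09570) and CPK11 (AT1G35670) are close relatives that promote ABA responses and phosphorylate the transcription factors ABF1 and ABF4. CPK11 also phosphorylates the zinc finger protein DI19, and both kinases phosphorylate ACS6, an enzyme of ethylene synthesis. CPK11 (chromosome 1, 13205345 to 13208289, plus strand, up to 7 exons) was at 24.8 and 26.2 CPM in wild type without ABA, against 21.1 and 24.4 with it. In skip-1 it was at 29.4 and 33.9 CPM without ABA, against 34.3 and 31.7 with it. Every skip-1 library was thus above every wild type library. With ABA, CPK11 was higher in skip-1 by 0.54 ± 0.12 (1.45-fold, adjusted p = 0.0115), and without ABA the difference of 0.31 ± 0.12 did not pass (adjusted p = 0.0986). The call with ABA was lost without replicate 1 of skip-1 with ABA (adjusted p = 0.0684) or replicate 1 of wild type with ABA (0.075).

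ABA did not change CPK11 past the threshold in wild type (−0.17, 95% interval −0.44 to 0.11) or in skip-1 (0.06, −0.21 to 0.33). With scaling by library total alone it was called lower in wild type (−0.37, adjusted p = 0.0282). CPK4 (chromosome 4, 6049441 to 6052380, plus strand, up to 7 exons) stayed between 24.6 and 30.9 CPM in all 8 libraries. Its ABA effect was 0.10 in wild type (−0.18 to 0.39) and 0.12 in skip-1 (−0.17 to 0.40), and neither passed the threshold.

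CPK21 (AT4G04720) and CPK23 (AT4G04740) both activate SLAC1 when expressed with it in frog oocytes, and CPK21 also activates the related channel SLAH3. ABI1 blocks the action of CPK21 on SLAH3. The genes stand in a run of 5 CPK genes on the minus strand of chromosome 4, in which CPK31, CPK27, CPK22, CPK21 and CPK23 follow each other from 2381348 to 2408737. CPK23 (2402897 to 2408737, up to 11 exons) was at 17.6 and 16.4 CPM in wild type without ABA, against 21.2 and 23.5 with it. The skip-1 libraries were at 16.1 and 14.8 CPM without ABA, against 28.2 and 30.4 with it. The libraries did not overlap between doses in either genotype, and the skip-1 libraries lay below wild type without ABA and above it with ABA.

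CPK23 rose by 0.40 ± 0.12 in wild type (1.32-fold, adjusted p = 0.0219) and by 0.92 ± 0.12 in skip-1 (1.9-fold, adjusted p = 0.00062). With ABA it was higher in skip-1 than in wild type by 0.39 ± 0.11 (adjusted p = 0.0305), and without ABA the difference was −0.14 (95% interval −0.40 to 0.13). The ABA effect in skip-1 exceeded that in wild type by 0.53 ± 0.16, which had an unadjusted p of 0.0105 and did not pass after adjustment in edgeR over all genes (adjusted p = 0.123). The wild type call rests on the scaling and on single libraries: the log2 fold change was 0.19 (adjusted p = 0.233) with scaling by library total alone, and adjusted p was 0.0628 with DESeq2, 0.14 without replicate 2 of wild type with ABA, and 0.0682 and 0.119 without replicates 1 and 2 of wild type without ABA. The higher level in skip-1 with ABA lost its call with DESeq2 (adjusted p = 0.0644) and without replicate 1 or 2 of skip-1 with ABA (0.0751 and 0.155) or of wild type with ABA (0.15 and 0.0563).

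CPK21 (2393653 to 2397804, up to 9 exons) stayed between 54.4 and 64.4 CPM. It was at 58.2 and 60.2 CPM in wild type without ABA, against 55 and 54.4 with it, and at 60.5 and 64.4 CPM in skip-1 without ABA, against 64.1 and 62.2 with it. Its ABA effect was −0.12 in wild type (95% interval −0.31 to 0.08) and 0.02 in skip-1 (−0.18 to 0.21). With scaling by library total alone CPK21 was called lower with ABA in wild type (−0.32, adjusted p = 0.0117) and higher in skip-1 than in wild type with ABA (0.35, adjusted p = 0.0141).

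CPK10 (AT1G18890), CPK30 (AT1G74740) and CPK32 (AT3G57530) phosphorylate NLP7, the transcription factor that starts the response to nitrate. CPK32 also phosphorylates ABF4, and CPK10 acts in drought-induced stomatal closure. CPK10 (chromosome 1, 6522764 to 6526075, minus strand, up to 7 exons) was at 22 and 26.6 CPM in wild type without ABA, against 48.4 and 57.9 with it. In skip-1 it was at 29.8 and 31.7 CPM without ABA, against 53.6 and 56.9 with it. The groups lay apart by dose in both genotypes, and without ABA the skip-1 libraries lay above those of wild type. CPK10 had the largest ABA effect of the 9 genes in wild type, 1.13 ± 0.13 (2.19-fold, adjusted p = 0.000179), and in skip-1 it rose by 0.84 ± 0.13 (1.8-fold, adjusted p = 0.00171). Both calls held in all 16 alternative analyses, where its log2 fold change ran from 0.86 to 1.27 in wild type and from 0.76 to 0.92 in skip-1.

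Without ABA CPK10 differed between genotypes by 0.34 ± 0.13, which did not pass (adjusted p = 0.0949), and with ABA by 0.06 (95% interval −0.23 to 0.34). With the replicate number as a block, the difference without ABA was called (0.346, edgeR adjusted p = 0.0277). CPK10 overlaps the gene AT1G18880 on the opposite strand by 605 bases, and a non-coding RNA gene, AT1G05453, on that strand by 671 bases, which was not analysed here. The strand setting of the counting is not stated in the sources used here, and without strand, reads from that stretch cannot be told apart. AT1G18880 moved the other way, from 21.6 and 20.3 CPM to 10.9 and 10.8 CPM with ABA in wild type (−0.94 ± 0.17, adjusted p = 0.00259) and from 19.6 and 14.1 to 12.6 and 10.3 CPM in skip-1 (−0.56 ± 0.17, adjusted p = 0.0429). Shorter overlaps were annotated for CPK30 with AT1G74730 (42 bases), CPK4 with AT4G09580 (29 bases) and CPK3 with AT4G23660 (14 bases).

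CPK32 (chromosome 3, 21296457 to 21299704, minus strand, up to 8 exons) was at 30.2 and 31.4 CPM in wild type without ABA, against 52.2 and 58.6 with it. The skip-1 libraries were at 33.4 and 35.6 CPM without ABA, against 50.8 and 40.2 with it. The doses did not overlap in either genotype, and the skip-1 libraries with ABA stood further apart from each other than those of any other group. CPK32 rose by 0.84 ± 0.13 in wild type (1.8-fold, adjusted p = 0.00086), a call that held in all 16 alternative analyses, and by 0.40 ± 0.13 in skip-1 (1.32-fold, adjusted p = 0.0455). The skip-1 call held in only 5 of 16 alternatives. Adjusted p was 0.0655 with DESeq2 and 0.0648 with scaling by library total, and it reached 0.292 (log2 fold change 0.22) without replicate 1 of skip-1 with ABA. It ran from 0.0607 to 0.165 when either skip-1 library without ABA or any wild type library was left out. The ABA effect in skip-1 was below that in wild type by −0.44 ± 0.18, with an unadjusted p of 0.0363 and an edgeR adjusted p of 0.219.

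CPK30 (chromosome 1, 28079946 to 28082671, minus strand, up to 7 exons) was at 17.3 and 19.4 CPM in wild type without ABA, against 18 and 23.8 with it. In skip-1 it was at 15.9 and 18.6 CPM without ABA, against 22.5 and 23.7 with it. The doses overlapped in wild type and lay apart in skip-1. Its ABA effect was 0.18 in wild type (95% interval −0.17 to 0.54) and 0.42 in skip-1 (0.07 to 0.77, adjusted p = 0.0732), and neither passed. With the replicate number as a block, the effect in skip-1 was called (0.425, edgeR adjusted p = 0.0229). Without replicate 1 of wild type with ABA, the adjusted p in skip-1 was 0.05 after rounding and just inside the threshold.

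**Figure D3:**
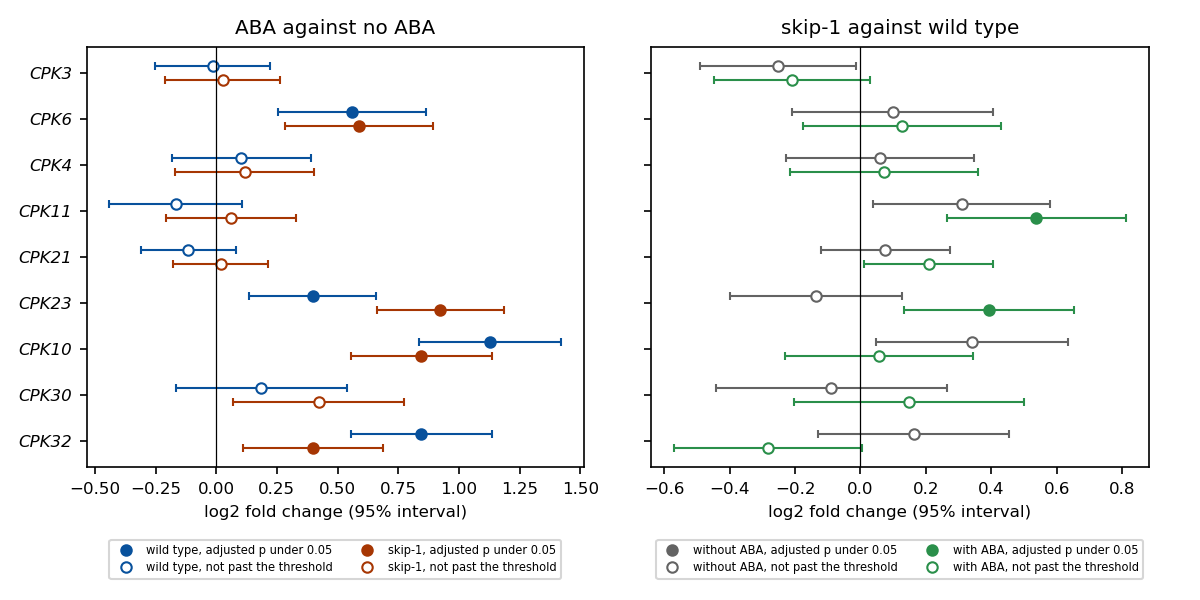
Log2 fold changes of the 9 CPK genes with 95% intervals from the edgeR fit. The left panel shows ABA against no ABA in wild type and skip-1, and the right panel skip-1 against wild type without and with ABA. Filled points passed an adjusted p of 0.05, which were CPK6, CPK10, CPK23 and CPK32 on the left in both genotypes, and CPK11 and CPK23 with ABA on the right.

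The comparison of genotypes gave fewer calls among the 9 genes. Without ABA none of the 9 was called by the main edgeR fit, beside 20.5% of all genes (10.4% higher, 10% lower). At an unadjusted p under 0.05 there were 3 (CPK3, CPK10 and CPK11), and DESeq2 and limma called 0. The edgeR fit with the replicate number as a block called 1, CPK10. The libraries of the genotypes lay apart in 6 of the 9 genes, beside 63% of all genes. With ABA, CPK11 and CPK23 were higher in skip-1, so 22.2% of the 9 were called beside 31% of all genes (13.6% higher, 17.4% lower), and 5 of the 9 lay apart beside 69.7%. The difference between the ABA effects, tested as an interaction, called 0 of the 9 beside 3.07% of all genes (0.8% higher, 2.27% lower). At an unadjusted p under 0.05 it had 2, CPK23 and CPK32, in opposite directions, and DESeq2 and limma called 0. The 95% intervals of that difference ran from −0.85 to 0.90 across the 9 genes, and a p that misses the threshold does not show that the genotypes responded alike. With scaling by library total alone, 4180 genes were called higher and 2493 lower in skip-1 with ABA, against 2855 and 3649, and for the interaction 297 and 238, against 168 and 476.

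The 9 genes include 3 pairs of near relatives whose coding sequences align at 89.2% (CPK21 and CPK23), 88.1% (CPK4 and CPK11) and 85.4% (CPK10 and CPK30) identity, and no other pair passed 72.4%. Reads from stretches that are identical in both genes of a pair cannot be assigned by sequence. The longest such coding stretch of each pair is shown in reading direction, from the RefSeq annotation of TAIR10.1, and how the counting treated such reads is not stated in the sources used here.
CPK21 and CPK23, 77 bases, chromosome 4: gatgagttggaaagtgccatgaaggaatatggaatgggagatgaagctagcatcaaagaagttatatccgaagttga
CPK4 and CPK11, 53 bases, chromosomes 4 and 1: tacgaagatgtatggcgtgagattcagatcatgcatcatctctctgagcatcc
CPK10 and CPK30, 44 bases, both on chromosome 1: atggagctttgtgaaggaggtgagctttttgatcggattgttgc
Of all stretches of 31 bases in the exons, 9.42% in CPK21, 3.53% in CPK23, 4.59% in CPK4 and 4.38% in CPK11 were also found elsewhere in the nuclear chromosomes. Whether those places lie in other genes was not examined. For CPK10 and CPK30 the shares were 0.567% and 1.23%, and for CPK3, CPK6 and CPK32 they were at most 0.174%.

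Within a library the ratio of both genes of a pair does not depend on the scaling. CPK10 over CPK30 in FPKM was 1.01 and 1.1 in wild type without ABA, against 2.15 and 1.94 with it, and 1.49 and 1.36 in skip-1 without ABA, against 1.9 and 1.92 with it. CPK21 over CPK23 was 4.39 and 4.88 in wild type without ABA, against 3.44 and 3.07 with it, and 4.99 and 5.76 in skip-1 without ABA, against 3.01 and 2.71 with it. In both pairs the ratios with ABA lay apart from those without it, towards CPK10 and towards CPK23. CPK4 over CPK11 was 1.06 and 1.09 in wild type without ABA, against 1.44 and 1.17 with it, and 0.863 and 0.942 in skip-1 without ABA, against 0.879 and 1.01 with it. All 4 wild type ratios of that pair lay above all 4 skip-1 ratios. These ratios are given as a description and were not tested.

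**Figure D4:**
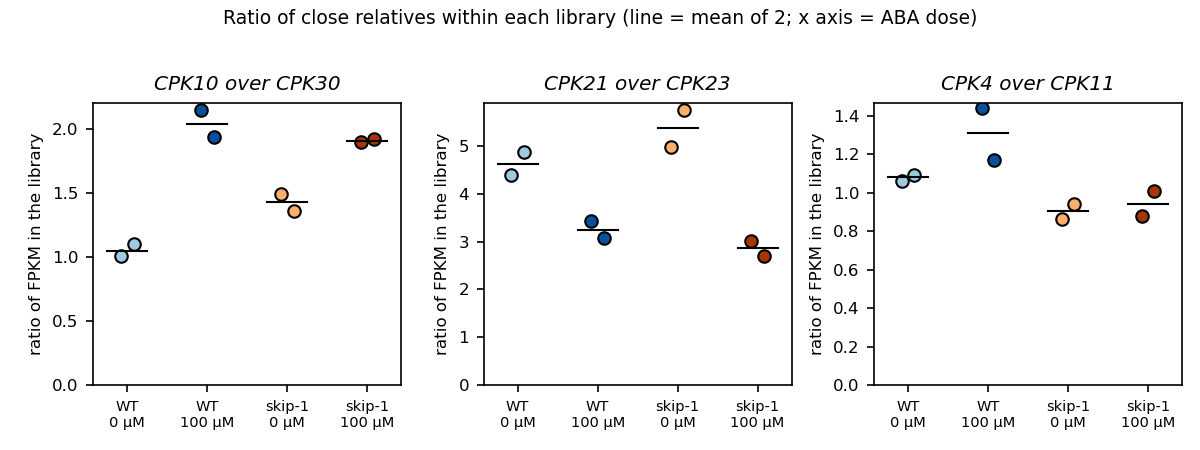
Ratio of the FPKM of CPK10 over CPK30, CPK21 over CPK23 and CPK4 over CPK11 within each library of wild type (WT) and skip-1 at 0 and 100 µM ABA. Points are libraries and lines group means. In all 4 libraries with ABA, CPK10 over CPK30 is at 1.9 or more and CPK21 over CPK23 at 3.44 or less.

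The sequences just before the annotated starts of the 4 genes called higher with ABA in both genotypes are shown. That of CPK30 is added as the near relative of CPK10 that did not pass the threshold. Each is the 250 bases before the start in the RefSeq annotation of TAIR10.1, in the direction of transcription, with matches to the core of the dehydration-responsive element (CCGAC) on either strand in capitals.
CPK10 chr1:6526076-6526325, minus strand: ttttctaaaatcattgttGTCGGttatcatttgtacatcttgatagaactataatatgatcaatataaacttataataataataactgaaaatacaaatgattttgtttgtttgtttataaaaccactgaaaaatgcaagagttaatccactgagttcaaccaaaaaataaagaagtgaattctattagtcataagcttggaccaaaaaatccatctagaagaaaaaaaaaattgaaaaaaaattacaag
CPK32 chr3:21299705-21299954, minus strand: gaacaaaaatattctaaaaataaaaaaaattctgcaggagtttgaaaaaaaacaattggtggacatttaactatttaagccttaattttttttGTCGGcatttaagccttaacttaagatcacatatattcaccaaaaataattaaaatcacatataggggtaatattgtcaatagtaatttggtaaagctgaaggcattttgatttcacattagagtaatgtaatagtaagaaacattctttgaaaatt
CPK6 chr2:7516080-7516329, plus strand: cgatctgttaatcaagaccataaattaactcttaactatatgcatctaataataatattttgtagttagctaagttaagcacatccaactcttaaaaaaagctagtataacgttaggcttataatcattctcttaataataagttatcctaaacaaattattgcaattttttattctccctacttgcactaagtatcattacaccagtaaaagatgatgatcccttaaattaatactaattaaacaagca
CPK23 chr4:2408738-2408987, minus strand: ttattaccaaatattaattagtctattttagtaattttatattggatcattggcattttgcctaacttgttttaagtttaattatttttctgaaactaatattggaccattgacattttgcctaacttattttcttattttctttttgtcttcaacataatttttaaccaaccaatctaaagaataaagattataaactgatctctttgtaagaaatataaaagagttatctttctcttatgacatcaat
CPK30 chr1:28082672-28082921, minus strand: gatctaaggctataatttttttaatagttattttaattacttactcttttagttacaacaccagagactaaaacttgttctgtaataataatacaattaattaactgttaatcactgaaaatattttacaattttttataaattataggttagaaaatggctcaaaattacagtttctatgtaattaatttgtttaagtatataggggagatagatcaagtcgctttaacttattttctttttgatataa
From 250 bases before to 50 bases after the start, the core of the ABA-responsive element (ACGTG, both strands) was in 0 of the 9 promoters, beside 26.7% of 27443 promoters of the annotation. CCGAC was in 2 of the 9, CPK10 at position −232 and CPK32 at −157 from the start and on the opposite strand in both, beside 15% of all promoters. The W-box core (TTGAC, both strands) was in 6 of the 9 beside 50.5%, and the evening element (AAATATCT, both strands) in 0 beside 5.65%. Neighbouring matches of different motifs can share end letters but not all their bases. These are matches of letters in a short window and say nothing of binding.

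Profiles were compared over the 8 libraries for CPK10, the only one of the 9 whose group means spanned at least 1 on the log2 CPM scale (1.19). Of 15816 genes searched, AT5G51260 had the smallest root mean square difference from it after centring, 0.067 on the log2 scale, followed by ABF4 at 0.09. ABF4, which CPK4, CPK11 and CPK32 phosphorylate, was at 30.8 and 31.8 CPM in wild type without ABA, against 63.4 and 71.8 with it, and at 36.1 and 38.6 CPM in skip-1 without ABA, against 66.7 and 80.5 with it. CPK10 and ABF4 both lay apart by dose in each genotype, beside 73.6% of all genes in wild type and 67% in skip-1. ABF4 was picked for its likeness to CPK10 over these same libraries, so the shared separation follows from that choice.

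Among the other 25 CPK genes, 16 had enough counts to be tested, and ABA in wild type raised 4 and lowered 3. These 7 of 16 stand beside 43.1% of all genes called (23.7% higher, 19.5% lower), so the share was near that of the whole table. CPK15 rose furthest, from 1.33 and 1.86 CPM to 14.7 and 11.9 CPM (3.05 ± 0.27, adjusted p = 3.64e-05), a larger log2 fold change than that of any of the 9 genes. CPK29 rose by 0.81 ± 0.15 (adjusted p = 0.0024). CPK27 fell by 1.18 ± 0.20 on the log2 scale (adjusted p = 0.00183) and CPK31 by 0.86 ± 0.26 (adjusted p = 0.0264), whose call was lost without replicate 1 of wild type with ABA (0.144) or without ABA (0.141). Both stand in the chromosome 4 run with CPK21, CPK22 and CPK23. Within that run CPK23 rose, a call held in 10 of 16 alternatives, CPK27 and CPK31 fell, and CPK21 and CPK22 were not called. In skip-1, 4 of the 16 rose (CPK8, CPK13, CPK15 and CPK29) and none fell, beside 28.5% of all genes called, with the calls of CPK8 and CPK13 held in 11 of 16 alternatives each (adjusted p up to 0.21 and 0.12). In wild type the call of CPK13 held in only 4 of 16. Between genotypes CPK26 was lower in skip-1, at 1.84 and 2.02 CPM against 5.4 and 4.54 without ABA (−1.36 ± 0.23, adjusted p = 0.00615) and with ABA by −1.23 ± 0.23 (adjusted p = 0.00504).

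The calcium sensors of the other calcium-dependent route, the calcineurin B-like proteins (CBLs), bind and activate CBL-interacting protein kinases (CIPKs). All 26 CIPK genes were tested, and ABA raised 14 and lowered 1 in each genotype, beside 43.1% of all genes called in wild type and 28.5% in skip-1. Their median log2 fold changes were 0.73 in wild type and 0.64 in skip-1, beside −0.01 and −0.02 over all genes tested. CIPK19 went from 0.415 and 0.567 CPM to 16.6 and 19 CPM in wild type (5.16 ± 0.23, adjusted p = 1.18e-06), and CIPK5 from 7.73 and 7.98 to 61.5 and 61.8 CPM (2.97 ± 0.12, adjusted p = 6.25e-07). In skip-1 with ABA, 12 CIPK genes were lower than in wild type and 2 were higher, beside 17.4% of all genes lower and 13.6% higher. The lower calls of CIPK5, CIPK8, CIPK10, CIPK12, CIPK15 and CIPK22 held in all 16 alternatives. The other lower calls and the higher calls of CIPK21 and CIPK24 did not. CIPK7 and CIPK18 lost theirs with scaling by library total alone, among other alternatives (edgeR adjusted p = 0.052 and 0.0536). Of the 10 CBL genes 7 were tested, with 2 higher and 2 lower after ABA in wild type, again beside 43.1% of all genes called. CBL4 (0.72 ± 0.13, adjusted p = 0.00202) and CBL9 (0.69 ± 0.15, adjusted p = 0.00562) rose. CBL10 (−1.08 ± 0.30, adjusted p = 0.02) and CBL1 (−0.50 ± 0.14, adjusted p = 0.0192) fell, and each lost its call without any of 3 single wild type libraries, with adjusted p up to 0.106 and 0.0881. Of the 8 CPK-related kinases, whose calcium-binding part is degenerate, ABA in wild type raised 3 and lowered 0. These stand beside 43.1% of all genes called, 23.7% higher and 19.5% lower, so the share called was near that of the whole table. CRK2 rose furthest (1.89 ± 0.12, adjusted p = 8.02e-06).

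**Figure D5:**
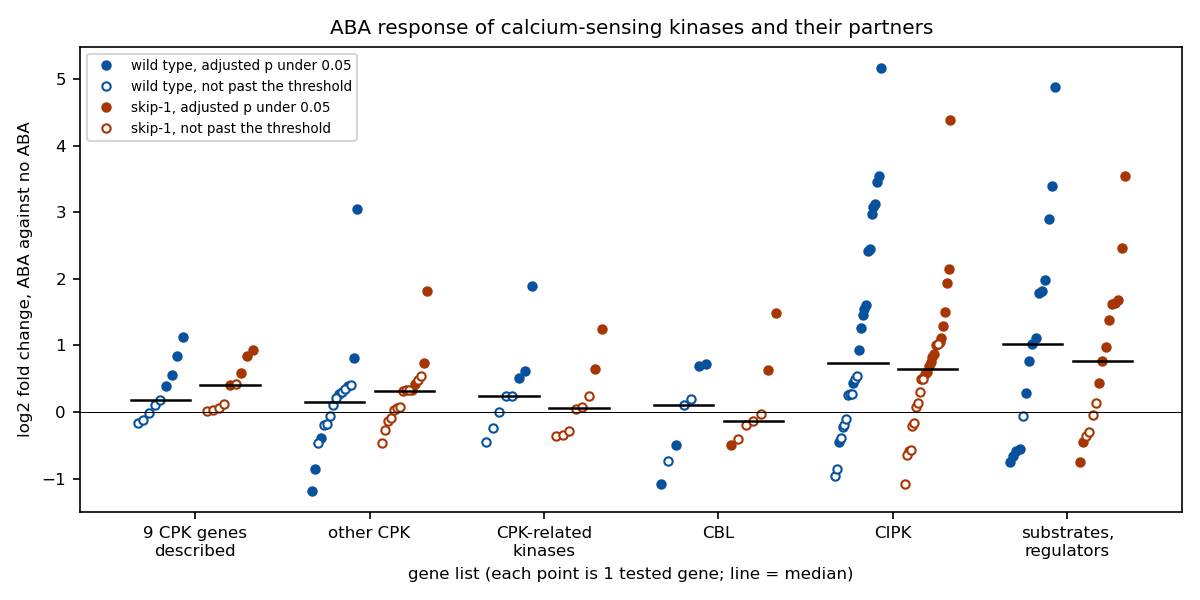
Log2 fold change with ABA of each tested gene in 6 lists, in wild type and skip-1. Lines are medians and filled points passed an adjusted p of 0.05. In wild type the CIPK list reaches 5.16 and the substrates and regulators 4.89, while the 9 CPK genes lie between −0.17 and 1.13.

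Of 16 genes that CPKs act on or that counteract or parallel them, 15 were tested, and ABA in wild type raised 10 and lowered 4, beside 23.7% of all genes higher and 19.5% lower. In skip-1 it raised 9 and lowered 2, beside 16.3% and 12.1%. This list was chosen with earlier results of these data known, so its shares are a description only. The phosphatase genes ABI2 (4.89 ± 0.19, adjusted p = 6.37e-07) and ABI1 (3.40 ± 0.21, adjusted p = 7.34e-06) rose furthest in wild type, with OST1 (1.98 ± 0.11, adjusted p = 3.84e-06), the calcium-independent kinase that activates the same anion channel. Among channel genes, SLAH3 rose from 27 and 28.4 CPM to 111 and 83.2 CPM (1.81 ± 0.15, adjusted p = 2.4e-05). SLAC1 was at 6.02 and 5.99 CPM without ABA, against 5.54 and 5.95 with it, and its change did not pass (−0.06 ± 0.18, adjusted p = 0.803).

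Of the 2 oxidase genes that make reactive oxygen at the membrane, RBOHF rose by 1.79 ± 0.13 in wild type (adjusted p = 1.19e-05). RBOHD fell by 0.56 ± 0.19 on the log2 scale (adjusted p = 0.0491), a call that held in 9 of 16 alternatives and was lost without any of 6 libraries (adjusted p from 0.0567 to 0.241, the highest without replicate 2 of wild type without ABA). The transcription factor genes ABF4 (1.11 ± 0.12, adjusted p = 0.00012) and ABF1 (0.77 ± 0.14, adjusted p = 0.0025) rose. NLP7, the target of CPK10, CPK30 and CPK32, rose by 0.43 ± 0.09 in skip-1 (adjusted p = 0.00807), which held in all 16 alternatives, and by 0.28 ± 0.09 in wild type (adjusted p = 0.0335), which held in only 4 (adjusted p up to 0.546). Its relative NLP6 fell by 0.75 ± 0.18 on the log2 scale in wild type (adjusted p = 0.00893), a call lost without replicate 1 of wild type with ABA (0.0584). DI19 was at 431 and 539 CPM in wild type without ABA and 192 and 219 in skip-1 (−1.24 ± 0.13, adjusted p = 0.000926), and with ABA at 297 and 320 against 152 and 148 (−1.04 ± 0.13, adjusted p = 0.00105). ACS6 was at 7.27 and 9.07 CPM in wild type and 23.8 and 30.9 in skip-1 without ABA (1.74 ± 0.28, adjusted p = 0.00606). Without ABA, 6 of the 15 genes were higher and 1 lower in skip-1, beside 20.5% of all genes called. With ABA 2 were higher and 2 lower, beside 31%.

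Several of these kinases are known from guard cells, and markers of cell types moved with ABA too. Of 6 guard cell markers, ABA in wild type lowered 4 and raised 1, and in skip-1 it lowered 3, beside 19.5% and 12.1% of all genes lower in the respective comparison. Their summed level was 157 CPM in both wild type libraries without ABA and 95.3 to 101 with it, and 113 to 141 in skip-1 without ABA and 94.8 to 96 with it. Of 6 root markers, 3 fell and 1 rose in wild type and 3 fell in skip-1, with sums of 27.9 to 37.5 CPM without ABA and 17.7 to 20.9 with it over both genotypes. Of 4 green tissue markers 3 fell in each genotype. The rise of the guard cell marker KAT1 in wild type held in 8 of 16 alternatives, and the fall of HT1 in skip-1 in 12. All guard cell, root and green tissue markers had counts in every library. Their part in the changes of the 9 genes was not tested.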

How the data were processed

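RNA was extracted from seedlings with RNAiso Plus and made into libraries with an NEBNext Ultra RNA kit, per the labels' protocols. The authors deposited read counts per gene, not normalised, for all 8 libraries. Per the submitters' processing notes, Bowtie2 2.2.3, TopHat2 2.0.12, HTSeq 0.6.1 and the TAIR10 genome were used. What each tool did, its options, the strand setting and the annotation used are not stated in the sources used here. The authors also deposited FPKM values, and each equalled the count over gene length and over its column's sum, within a relative difference of 1e-06 for 185744 of 185744 values above 0.

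Counts were tested in R 4.3.3 with edgeR 4.0.16. Features were kept by its expression filter by group, which left 21008 of 33674, with 7972 having no count at all. Scaling used trimmed means of M values (TMM), which gave the CPM values. A robust quasi-likelihood fit had 1 coefficient per group and 4 residual degrees of freedom, and Benjamini-Hochberg adjustment ran over all features tested, with a threshold of 0.05. Standard errors (SE) are the absolute log2 fold change over the square root of F, so they and the 95% intervals are approximate. In counts simulated for ABA in wild type, 12.5% of 200 genes changed 1.5-fold and 84% of 200 changed 2-fold were recovered, with 0 and 13 false calls. Only those 200 genes were changed each time, and all genes had the same dispersion. In the data 43.1% of all genes were called in that comparison, so these shares do not carry over. How often changes as small as those of CPK6, CPK23 and CPK11 are missed in the data was not measured.

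Alternatives were other scalings (RLE factors, library size only), no low count filter, DESeq2, limma 3.58.1 on log2(FPKM + 1), a fit to the groups compared only, a fit that was not robust, the replicate number as a block, and each library left out. Gene positions and sequences came from RefSeq's annotation of TAIR10.1, matched by locus for 32835 features and all 9 CPK genes. It names CPK3, CPK10 and CPK11 by the older symbols CDPK6, CDPK1 and CDPK2. Named genes were SKIP, the 9 CPK genes in every comparison, up to 4 genes per list with the smallest adjusted p among those called, genes that the kinases act on, and the 2 genes most like a CPK gene whose group means span at least 1. Some further list members were chosen after their values were seen. The CPK genes and the lists were chosen with earlier results of these data known. One gene that the naming rule covers is not reported here.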

Additional observations from a re-analysis of the deposited data

Results flagged for a closer look

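For 6 genes around the CPKs the ABA effect in skip-1 differed from that in wild type by the interaction test, each time in the direction of a smaller rise in skip-1. They were 4 of 26 CIPK genes tested and 2 of 15 substrates and regulators. Of all genes 3.07% were called, 0.8% higher and 2.27% lower, so the lower direction was the more frequent in the whole table too. With scaling by library total alone it was not, with 297 genes called higher and 238 lower. The difference in log2 fold change was −1.861 for CIPK5 (edgeR adjusted p = 0.00292), −2.516 for CIPK25 (0.00292), −1.16 for CIPK6 (0.0494) and −0.587 for CIPK8 (0.0481), all kinases activated by CBL calcium sensors. It was −1.336 for the phosphatase gene ABI2 (adjusted p = 0.0255) and −1.261 for the heat shock factor gene HSFB2A (0.04). CIPK25 was at 2.2 and 2.23 CPM in wild type without ABA, against 16.7 and 20.9 with it, and at 11.3 and 12.1 CPM in skip-1 without ABA, against 17 and 17.6 with it. CIPK5 was at 7.73 and 7.98 CPM in wild type without ABA, against 61.5 and 61.8 with it, and at 13.9 and 13.2 CPM in skip-1 without ABA, against 27 and 31.4 with it. In both genes skip-1 lay above wild type without ABA. The calls of CIPK5 and CIPK25 held in all 15 alternatives, with adjusted p up to 0.0258 and 0.0221. That of ABI2 held in 9, that of HSFB2A in 7, that of CIPK6 in 4 and that of CIPK8 in 1. For each of these genes, leaving out any of several single libraries was enough to lose the call, and for CIPK8 any of all 8. The CIPK8 call was also lost with DESeq2 (adjusted p = 0.0505), RLE factors (edgeR adjusted p = 0.0537) and library size scaling (0.133), among others.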

How the results depend on the processing

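The ABA calls of CPK10 in both genotypes, of CPK32 in wild type and of CPK23 in skip-1 held in all 16 alternatives. Over the 9 CPK genes and all comparisons, 639 of 711 alternative values kept direction and side of the threshold, 29 lost a call, 9 gained one and 34 changed sign, and none of the sign changes was in a called value. For the other named genes 2156 of 2442 kept both and 286 lost the call. The cause of these shifts was not tested. Genes lower with ABA in wild type numbered 6658 with library size scaling and 6610 with limma on FPKM, in place of 4087. The interaction gave 376 higher and 825 lower genes with DESeq2, 297 and 238 with library size scaling, and 266 and 256 with limma, in place of 168 and 476. CPK genes called between genotypes with ABA numbered 1 with DESeq2, and 3 with library size scaling and 3 with limma, in place of 2. With ABA in wild type, CPK4 was at −0.104 and CPK30 at −0.022 with library size scaling, and at −0.098 and −0.029 with limma. With ABA in skip-1, CPK21 was at −0.016 in both and CPK3 at −0.006 and −0.007.

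With each library left out in turn, the count of the 9 genes called ran from 2 to 4 for ABA in wild type and from 2 to 4 in skip-1, and from 0 to 2 between genotypes with ABA. Genes lower with ABA in skip-1 ran from 1212 to 2452. Between genotypes, 672 to 1884 genes were higher and 711 to 1917 lower without ABA, and 1384 to 3391 higher and 2016 to 3857 lower with ABA. The interaction gave 25 to 186 higher and 96 to 465 lower. Uncalled log2 fold changes that crossed 0 ran, for ABA in skip-1, from −0.054 to 0.19 for CPK11, −0.043 to 0.088 for CPK21, −0.055 to 0.313 for CPK4 and −0.08 to 0.147 for CPK3. For ABA in wild type they ran from −0.053 to 0.345 for CPK30 and −0.089 to 0.033 for CPK3. Between genotypes with ABA they ran from −0.063 to 0.19 for CPK10 and −0.037 to 0.362 for CPK30, and without ABA from −0.189 to 0.009 for CPK30, −0.1 to 0.206 for CPK4 and −0.066 to 0.248 for CPK6. For the interaction they ran from −0.04 to 0.167 for CPK3, −0.133 to 0.214 for CPK4 and −0.12 to 0.235 for CPK6.

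The labels number the libraries 1 and 2 in each group without saying that equal numbers were handled together, and deviations of equal numbers correlated at 0.111 to 0.258, and 2 libraries per group are too few to show pairing. With the replicate number as a block, the interaction gave 422 higher and 935 lower genes, 1 of the 9 genes (CPK10, 0.346, adjusted p = 0.0277) was called between genotypes without ABA, and CPK30 was called with ABA in skip-1 (0.425, adjusted p = 0.0229). It changed no other call of the 9 genes. The 2 genes most like CPK10 and the motif counts were the same under their alternatives, except that 5 rather than 6 promoters held the W-box core in the 250 bases alone. The order of the 9 genes by FPKM was the same by TMM-scaled counts per kilobase. That alternative used the same gene lengths, so it could hardly change the order and is no test of the lengths.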
